A study of Mus musculus with 10 samples.

Results

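The blood endothelium of treated ear skin was followed through 10 genes of the vessel lining. Of them 6 mark vessel identity, namely Pecam1, Cdh5, Kdr, Vwf, Emcn and Cldn5. The other 4, Sele, Selp, Vcam1 and Icam1, encode adhesion proteins that inflamed vessels display to passing leukocytes. They were chosen by symbol, matched to the Ensembl identifiers, and are 10 of 41388 genes listed. All 10 were among the 16830 genes that passed a filter on low counts.

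RNA of whole ear skin from 10 C57Bl/6 mice was sequenced, 1 library per mouse. Per the series text, every mouse received topical calipotriol (MC903, a vitamin D analogue that inflames skin and causes itch) at 1 nM each day for 12 days. The text states the dose and days beside the littermates. The Littermate group held 4 mice with the genotype label WT. The Experimental group held 6 mice, which the series text calls NaV1.8+ Il4raF/F and the sample label calls NaV1.8+ Jak1F/F. NaV1.8 is a channel that marks sensory neurons of pain and itch, so that its promoter targets those cells, and F/F stands for a floxed gene, one that a recombinase can delete. Il4ra makes a receptor chain used by both IL-4 and IL-13, and Jak1 a kinase that acts below it. The labels do not settle which deletion the mice carried. Untreated skin was not analysed here, so the values compare inflamed skin with inflamed skin. Since the deletion is directed to neurons, whole skin cannot check it: Il4ra stood at 184 to 236 normalized CPM in Littermates and 130.2 to 270.1 in Experimental libraries, and Jak1 at 279.5 to 335 and 272.5 to 324. Total counts ran from 11520348 to 41935183 per library.

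Endothelial cells are joined by VE-cadherin (Cdh5) and claudin-5 (Cldn5), carry PECAM-1 (Pecam1) at their borders, sense VEGF through VEGFR2 (Kdr), and store von Willebrand factor (Vwf) in granules. Leukocytes leave the blood in steps: selectins slow them, then their integrins grip ICAM-1 and VCAM-1 and they pass between or through the endothelial cells. In mice TNF and IL-1 switch on Sele, Selp, Vcam1 and Icam1 through NF-κB, and in cultured endothelium IL-4 and IL-13 can raise Vcam1 and Selp through STAT6. P-selectin is also held ready in the granules that store von Willebrand factor.

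The promoters of E-selectin and ICAM-1 are shown because these 2 inducible genes share a short motif that none of the other 4 promoters found held. Sequences are from RefSeq (GRCm38.p6), for the + strand, and cover the 250 bases before the start of transcription, at chr1:164047984-164048233 for Sele and chr9:21015690-21015939 for Icam1. Capitals mark matches to GGANNTTCC and TTCNNNGAA, which overlap each other in Sele and lie apart in Icam1.
Sele promoter: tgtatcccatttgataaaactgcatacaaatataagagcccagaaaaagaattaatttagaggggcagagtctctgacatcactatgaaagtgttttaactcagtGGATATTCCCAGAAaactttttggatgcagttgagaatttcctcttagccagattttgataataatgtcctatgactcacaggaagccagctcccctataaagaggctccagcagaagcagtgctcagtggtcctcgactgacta
Icam1 promoter: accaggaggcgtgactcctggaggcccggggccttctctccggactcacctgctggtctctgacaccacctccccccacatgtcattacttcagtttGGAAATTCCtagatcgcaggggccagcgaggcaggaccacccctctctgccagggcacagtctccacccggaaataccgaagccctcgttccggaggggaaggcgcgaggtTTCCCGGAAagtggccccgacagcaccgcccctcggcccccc
In a window from 250 bases before to 50 after the start, promoters were found for Kdr, Emcn, Cldn5, Sele, Selp and Icam1, and not for Pecam1, Cdh5, Vwf and Vcam1. Positions count from 1 at the 5′ end of the window, and both strands were searched. GGANNTTCC, an NF-κB-like form searched only after these promoters had been read, was at bases 106 to 114 of Sele (GGATATTCC) and 98 to 106 of Icam1 (GGAAATTCC), and in 4.26% of 32851 promoters. TTCNNNGAA, the palindrome that STAT proteins bind, was at bases 111 to 119 of Sele (TTCCCAGAA) and 209 to 217 of Icam1 (TTCCCGGAA), and in 8.30% of promoters. The wider spacing known for STAT6, with 4 bases between TTC and GAA, was at bases 61 to 70 of Emcn (TTCTCAAGAA) and in 6.95% of promoters. The longer κB consensus was in 4.51% of promoters, and among these windows in that of Kdr, at bases 177 to 186 (GGGAGTCCCC). These matches describe letters only, and the windows of Selp and Cldn5 held none of the 4 motifs.

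In both groups the lining of the vessels was readily measured. Counts per library lay between 72 (Selp) and 4239 (Pecam1). Per gene length, on the deposited RPKM scale, Icam1 stood highest at a level of 20.6 ± 2.07 (SD, n = 10 libraries), followed by Pecam1 at 17.5 ± 2.34, Cldn5 at 11.7 ± 1.63 and Cdh5 at 10.9 ± 2.01. Vcam1 followed at 7.24 ± 1.39 RPKM, Vwf at 5.43 ± 1.15, Kdr at 4.64 ± 0.525 and Sele at 3.77 ± 0.605. Emcn at 2.58 ± 0.393 and Selp at 1.84 ± 0.493 RPKM closed the order. An inducible gene thus stood at each end of it, and every pair of neighbours in the order overlapped in their ranges over the libraries. Icam1 is also made by keratinocytes and leukocytes, Vcam1 by fibroblasts, and Selp, Vwf and Pecam1 by platelets, so these levels are of whole skin and not of endothelium alone.

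No member passed the test between the groups (edgeR quasi-likelihood test, Benjamini-Hochberg adjusted over all genes, threshold 0.05). Over all genes 3 of 16830 passed, or 0.0178%. At an unadjusted p under 0.05 the count was 1 of 10 members, Vwf, against 11.8% of all genes. DESeq2 was run without the filter on low counts, so its shares are over a larger set of 29507 genes. It also called 0 members at its adjusted threshold, where it called 0.786% of those genes. At an unadjusted p under 0.05 it had 1 member (Vwf), against 7.35% of those genes. With limma voom both counts of members were 0, and its unadjusted share of all genes was 11.5%. Without Littermate 2 and Experimental 6, the libraries whose removal raised the calls most, edgeR called 3.34% of genes and 0 members, and 3 members (Cdh5, Vwf and Selp) were at an unadjusted p under 0.05, against 19.4% of genes. Without Littermate 2 alone the same 3 were, against 17.2% of genes. Both removals were singled out by their effect on the calls. The p-values and calls after them, here and below, are therefore descriptive and no support for a difference. In every member the ranges of the 2 groups overlapped, as they did in all but 2.12% of genes. Because p-values here rest on the spread between mice, and each mouse gave 1 library, they carry no separate estimate of technical error. A difference in the number of endothelial cells and one in RNA per endothelial cell could not be told apart in whole skin.

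**Figure D1:**
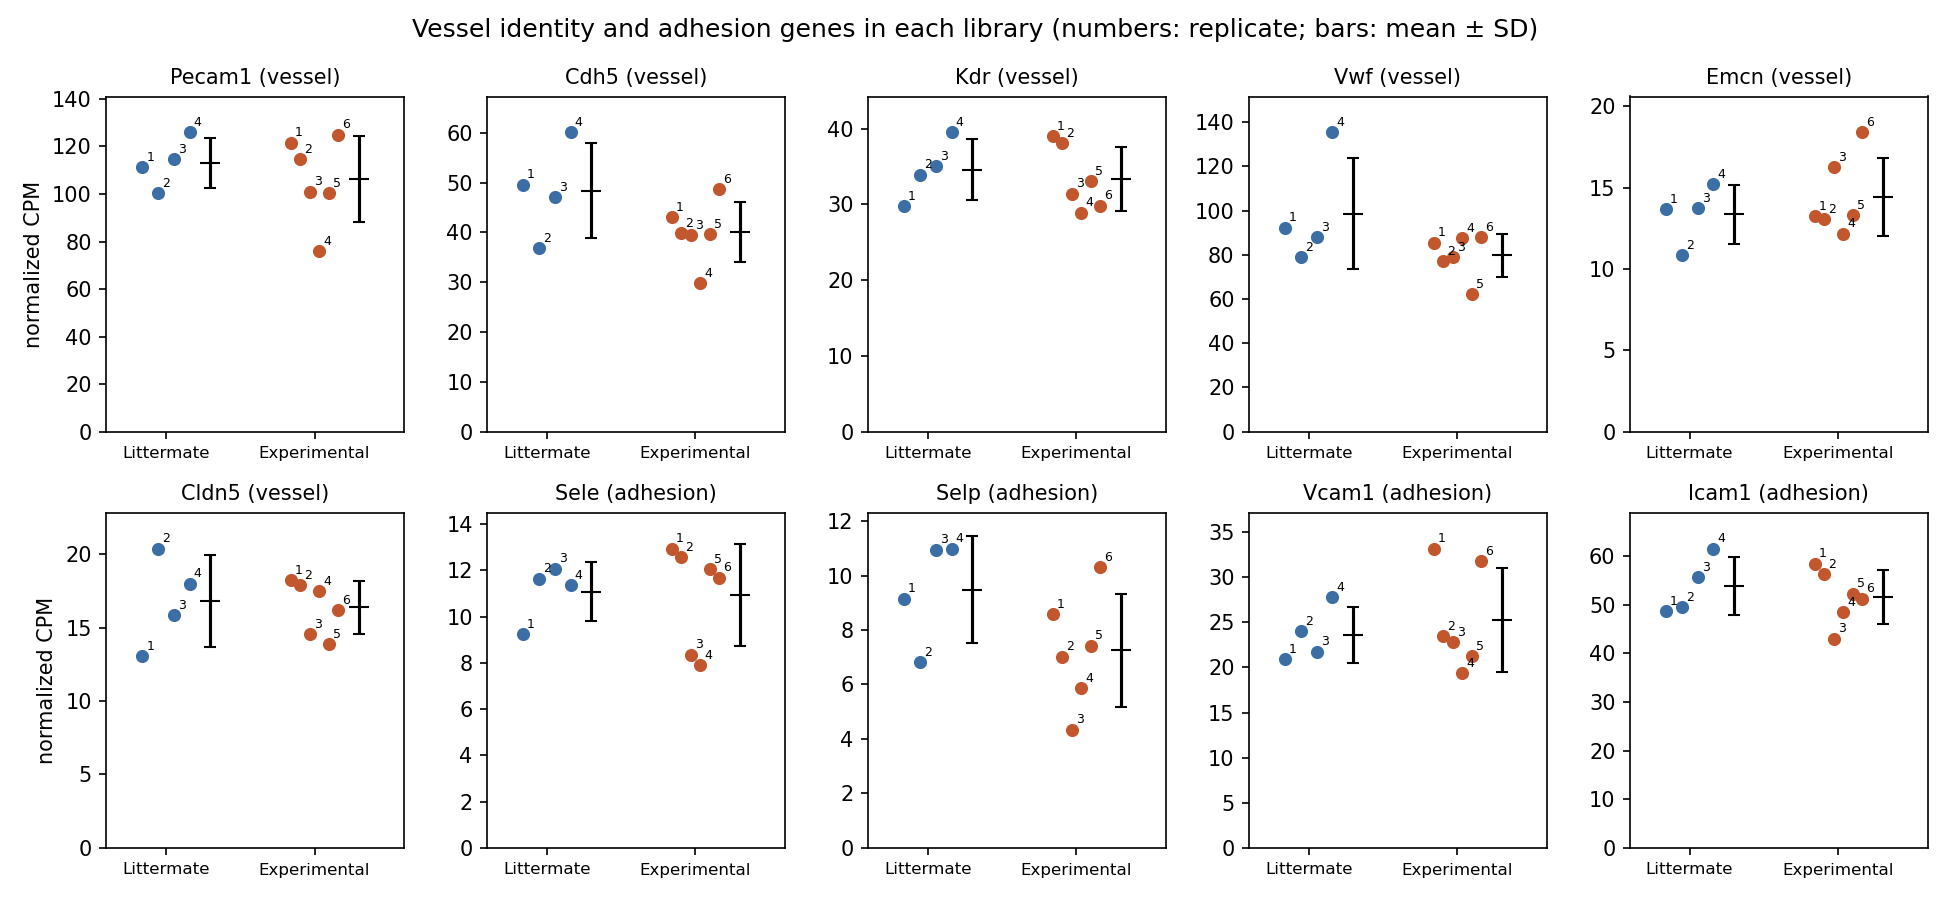
Normalized CPM of the 6 vessel identity and 4 adhesion genes in each library, 1 panel per gene, with the replicate number beside each point and the mean ± SD as a bar. The Littermate and Experimental points overlap in all 10 panels, and Littermate 4 is the highest library for 6 genes.

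Among the vessel identity genes, PECAM-1, the adhesion protein of endothelial borders, was the most abundant in counts. Pecam1 (ENSMUSG00000020717, mm10 chromosome 11, 106654217 to 106750628, - strand) stood at 111, 100.3, 115 and 126 normalized CPM (counts per 1000000 on TMM-scaled library sizes) in Littermates 1 to 4, and at a lowest of 76.1, a median of 108 and a highest of 125 in Experimental libraries. Experimental 4 was the one low library, below every Littermate, while 3 of 6 Experimental libraries lay above the Littermate mean. The means were 113 ± 10.5 (SD, n = 4) and 106 ± 18.0 (SD, n = 6), for a log2 fold change (Experimental over Littermate) of -0.08 (SE 0.12; 95% interval -0.34 to 0.17; edgeR adjusted p = 0.831). The interval allows a fold from 0.790 to 1.13.

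VE-cadherin, the junction protein restricted to endothelium, leaned lower in Experimental skin without passing. Cdh5 (ENSMUSG00000031871, chromosome 8, 104101625 to 104144502, + strand) stood at 49.6, 36.8, 47.1 and 60.1 CPM in Littermates 1 to 4, and at 29.9, 39.7 and 48.6 as the lowest, median and highest Experimental values. Littermate 4 was high and Littermate 2 low within their group, and 5 of 6 Experimental libraries lay below the Littermate mean. The means of 48.4 ± 9.56 (SD, n = 4) and 40.1 ± 6.11 (SD, n = 6) gave a log2 fold change of -0.27 ± 0.14 (SE; 95% interval -0.56 to 0.02; edgeR adjusted p = 0.468). Without Littermate 4 it was -0.14 (edgeR adjusted p = 0.854), and without Littermate 2 and Experimental 6 it was -0.44 (edgeR adjusted p = 0.0546).

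Von Willebrand factor, the platelet-binding glycoprotein of endothelial granules, had the lowest p of the members. Vwf (ENSMUSG00000001930, chromosome 6, 125546774 to 125686679, + strand) stood at 92.3, 78.9, 88.0 and 135 CPM in Littermates 1 to 4, against a lowest of 62.2, a median of 82.2 and a highest of 88.0 in Experimental libraries. All 6 Experimental libraries lay below the Littermate mean, which Littermate 4 raised above the values of the other 3 Littermates. Group means were 98.6 ± 25.1 (SD, n = 4) and 79.8 ± 9.75 (SD, n = 6), and the log2 fold change was -0.30 ± 0.14 (SE; 95% interval -0.61 to -0.00; unadjusted p = 0.0493, edgeR adjusted p = 0.424). Leaving out Littermate 4 moved it to -0.10 (edgeR adjusted p = 0.861), and leaving out Littermate 2 to -0.40 (edgeR adjusted p = 0.182).

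VEGFR2, the main receptor through which VEGF drives endothelial growth and leak, had the narrowest range of the members. Kdr (ENSMUSG00000062960, chromosome 5, 75932827 to 75978458, - strand) stood at 29.7, 33.9, 35.0 and 39.5 CPM in Littermates 1 to 4, and at 28.9, 32.2 and 39.1 as the lowest, median and highest Experimental values. Its highest library was only 1.37 times its lowest, and the groups covered nearly the same range. The log2 fold change was -0.05 (95% interval -0.27 to 0.18; edgeR adjusted p = 0.901), which bounds the fold between 0.830 and 1.13.

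Endomucin, a sialomucin of capillaries and veins that holds leukocytes off the endothelium, was the vessel gene with a positive difference. Emcn (ENSMUSG00000054690, chromosome 3, 137341067 to 137432185, + strand) stood at 13.7, 10.8, 13.7 and 15.2 CPM in Littermates 1 to 4, and its Experimental values had a lowest of 12.2, a median of 13.3 and a highest of 18.4. Experimental 3 and 6 lay above every Littermate, and the other 4 within the Littermate range. Its log2 fold change was 0.11 ± 0.13 (SE; 95% interval -0.17 to 0.39; edgeR adjusted p = 0.782).

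Claudin-5 seals the tight junctions of endothelium. Cldn5 (ENSMUSG00000041378, chromosome 16, 18776847 to 18778260, + strand) stood at 13.1, 20.4, 15.9 and 18.0 CPM in Littermates 1 to 4, and at 13.9, 16.8 and 18.2 as the lowest, median and highest Experimental values. Both its highest and its lowest library were Littermates, numbers 2 and 1, so the Experimental values lay wholly inside the Littermate range. The log2 fold change was -0.04 (95% interval -0.30 to 0.22; edgeR adjusted p = 0.933).

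Turning to the adhesion genes, E-selectin is a selectin that stimulated endothelium makes, and dermal vessels are a known site of it. Without untreated skin, its level here cannot be read as induced. Sele (ENSMUSG00000026582, chromosome 1, 164048234 to 164057677, + strand) stood at 9.23, 11.7, 12.1 and 11.4 CPM in Littermates 1 to 4, and at a lowest of 7.92, a median of 11.9 and a highest of 12.9 in Experimental libraries. Experimental 3 and 4 lay below every Littermate, and the other 4 lay above the Littermate mean. The means were 11.1 ± 1.27 (SD, n = 4) and 10.9 ± 2.20 (SD, n = 6), a log2 fold change of -0.02 ± 0.15 (SE; 95% interval -0.34 to 0.30; edgeR adjusted p = 0.973). A fold between 0.788 and 1.23 is within the interval.

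P-selectin, which tethers leukocytes and is stored beside von Willebrand factor, had the largest difference and the widest interval. Selp (ENSMUSG00000026580, chromosome 1, 164115264 to 164150026, + strand) stood at 9.15, 6.82, 10.95 and 10.99 CPM in Littermates 1 to 4, and its Experimental values had a lowest of 4.34, a median of 7.23 and a highest of 10.3. Littermate 2 sat among the Experimental values, and 5 of 6 Experimental libraries were below the Littermate mean. The means were 9.48 ± 1.97 (SD, n = 4) and 7.26 ± 2.07 (SD, n = 6), a log2 fold change of -0.40 ± 0.21 (SE; 95% interval -0.86 to 0.06; edgeR adjusted p = 0.503). It was -0.26 without Experimental 3 (edgeR adjusted p = 0.638), -0.53 without Littermate 2, and -0.65 without Littermate 2 and Experimental 6 (edgeR adjusted p = 0.0757). The coefficient of variation was 20.8% in Littermates and 28.5% in Experimental libraries, against 9.02% and 8.64% from counting error, so most of the spread lay above counting error. Its bounds reach from a fold of 0.551 to 1.05. On the opposite strand it overlaps Gm16587 and Gm16548, whose 27 and 13 counts over all libraries compare with 1434 for Selp.

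VCAM-1, the ligand of the integrin α4β1 and a product that IL-4 and IL-13 can raise on endothelium, had a positive difference. Vcam1 (ENSMUSG00000027962, chromosome 3, 116110020 to 116129688, - strand) stood at 20.9, 24.0, 21.8 and 27.8 CPM in Littermates 1 to 4, and at a lowest of 19.4, a median of 23.1 and a highest of 33.2 in Experimental libraries. Experimental 1 and 6 were above every Littermate, while the other 4 lay below 24 CPM. The means of 23.6 ± 3.09 (SD, n = 4) and 25.3 ± 5.75 (SD, n = 6) gave a log2 fold change of 0.10 ± 0.15 (SE; 95% interval -0.23 to 0.43; edgeR adjusted p = 0.843). Its fold interval from 0.855 to 1.35 has the highest upper bound of the members.

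ICAM-1, the ligand of the β2 integrins, was the steadiest adhesion gene. Icam1 (ENSMUSG00000037405, chromosome 9, 21015960 to 21028797, + strand) stood at 48.6, 49.5, 55.7 and 61.5 CPM in Littermates 1 to 4, and at 43.0, 51.7 and 58.4 as the lowest, median and highest Experimental values. Its highest library was 1.43 times its lowest. The log2 fold change was -0.06 ± 0.09 (SE; 95% interval -0.26 to 0.14; edgeR adjusted p = 0.847), for a fold between 0.834 and 1.10. A gene on the opposite strand that overlaps it, ENSMUSG00000097432, held 76 counts over all libraries against 9866 for Icam1.

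By role, the log2 fold changes were negative in 5 of 6 vessel identity genes and 3 of 4 adhesion genes, with medians of -0.07 and -0.04, against 50.4% of all genes and a median of -0.00. Without Littermate 4 the medians were -0.0059 and 0.010, and without Experimental 3 that of the adhesion genes was 0.031. Over the 10 members the intervals together span folds from 0.551 to 1.35. The most extreme values of several members came from the same mice. Littermate 4 was the highest library for 6 of them (Pecam1, Cdh5, Kdr, Vwf, Selp and Icam1), where it was the highest for 18.3% of all genes. Experimental 4 was the lowest for 5 (Pecam1, Cdh5, Kdr, Sele and Vcam1), where it was the lowest for 10.7% of all genes.

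Other cells varied between the same libraries. Red cell markers, 7 genes led by the haemoglobins, summed to 104.1 to 309 CPM in Littermates and 56.6 to 185 in Experimental libraries. Littermate 4 held the 309, with the other 3 Littermates at 104.1 to 151, and it was the highest library for all 5 red cell genes tested. The fibroblast list of 7 genes, which also bears on Vcam1, summed to 4881 to 7711 CPM in Littermates, highest in Littermate 4, and to 4566 to 5658 in Experimental libraries. Markers of pericytes and vascular smooth muscle, 10 genes, were at 1022 to 1297 CPM and 876 to 1063, again highest in Littermate 4. Platelet markers, 8 genes that bear on Selp and Vwf, were at 80.3 to 103 CPM and 82.6 to 118. The 5 general leukocyte markers were at 503 to 607 CPM and 420 to 668, and the 10 myeloid markers at 1459 to 1834 and 1080 to 1897, both lowest in Experimental 4 and highest in Experimental 6. Adipocyte markers, 6 genes, were at 294 to 971 CPM and 494 to 739, highest in Littermate 4, as were 5 of the 6 genes. Skeletal muscle markers, 7 genes, were at 2866 to 6173 CPM, highest in Littermate 3, and 3174 to 4269. By edgeR 3 of them were lower at an unadjusted p under 0.05, against 8.10% of all genes. DESeq2 called Tnnc2 (log2 fold change -1.44, adjusted p = 0.0128), where it called 0.786% of genes. Keratinocyte markers, 8 genes, were at 34465 to 39022 CPM and 30854 to 37692. No gene of these lists was at 0 in every library. Their part in the differences of the members was not tested.

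**Figure D2:**
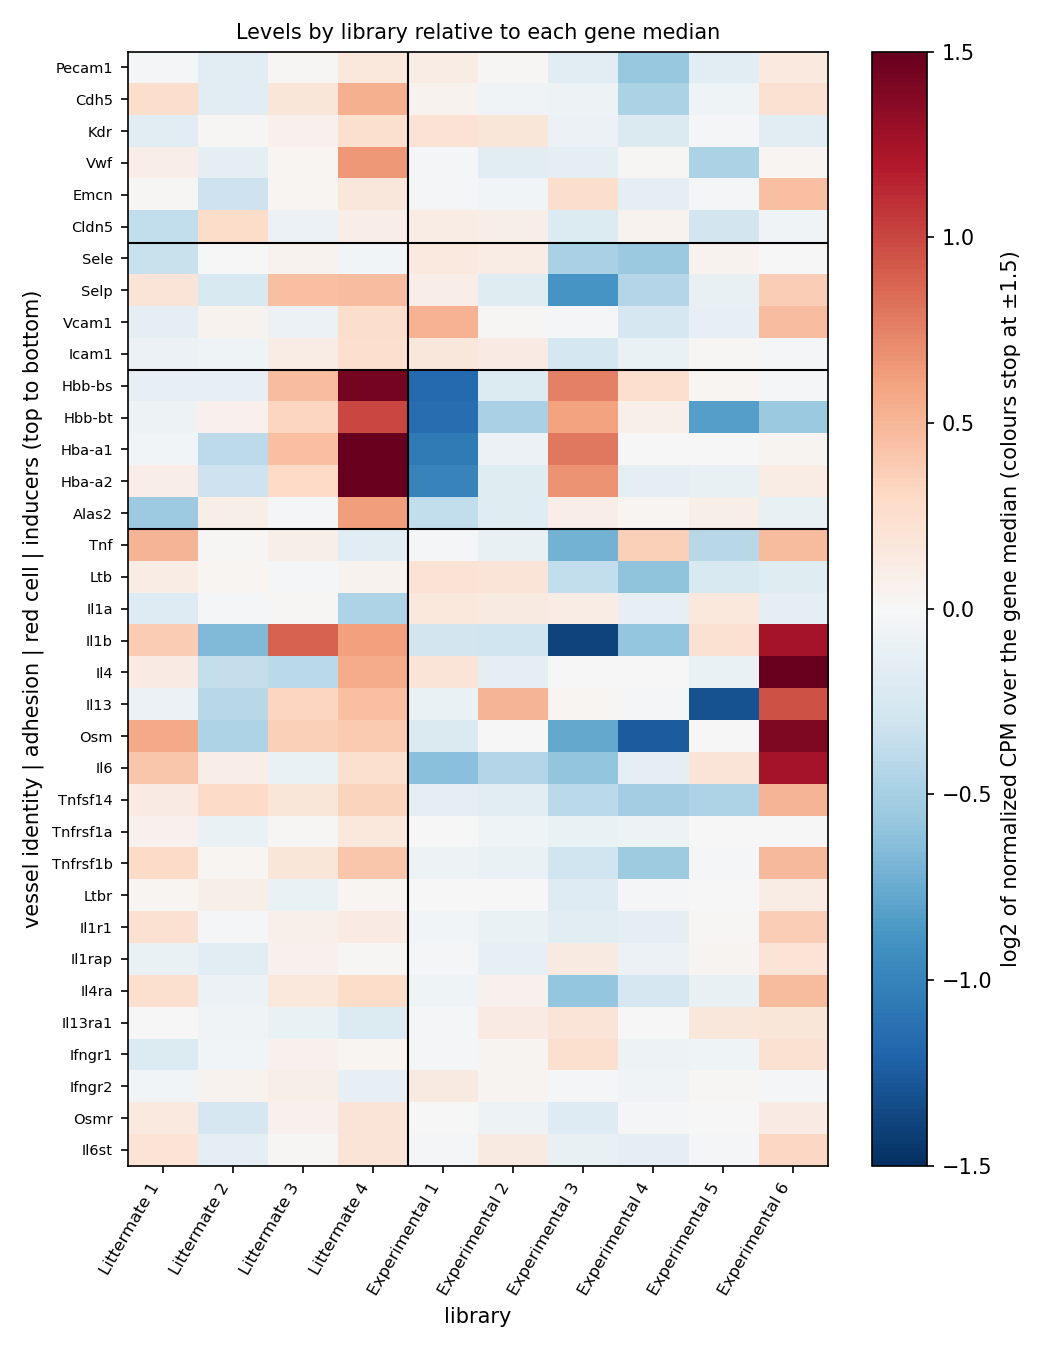
Levels in the 10 libraries as log2 of normalized CPM over each gene's median, for the vessel identity genes, the adhesion genes, red cell genes and inducers with their receptors, with colours stopping at 1.5. Littermate 4 is red for Vwf, Cdh5 and the haemoglobins, and Experimental 6 is red for Il1b, Il4, Osm and Il6, with Vcam1 and Selp above and Sele and Icam1 near their medians.

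To set inducible adhesion against vessel content, the counts of the 4 adhesion genes were summed and divided by those of the 6 vessel genes within each library, which removes depth and the size factor. The ratio was 0.284, 0.327, 0.320 and 0.283 in Littermates 1 to 4. In Experimental libraries 1 to 6 it was 0.353, 0.331, 0.279, 0.324, 0.354 and 0.322. Experimental 3 had the lowest of all ratios and Experimental 5 the highest, so the Experimental range enclosed the Littermate range. The means were 0.303 ± 0.0232 (SD, n = 4) and 0.327 ± 0.0274 (SD, n = 6), a log2 difference of 0.11 against a pooled SD of 0.12. With geometric means in place of sums the log2 difference was -0.0042. Without Vwf in the sum it was 0.06.

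Both sums varied over a similar range. Vessel genes summed to 281 to 394 CPM in Littermates and 252 to 326 in Experimental libraries, and adhesion genes to 87.9 to 112 and 78.5 to 113. The library highest in vessel genes, Littermate 4, had the second lowest ratio. Per unit of Cdh5, Vcam1 counts were 0.500 ± 0.104 (SD, n = 4) in Littermates and 0.629 ± 0.0818 in the Experimental group (SD, n = 6), with Littermate 2 at 0.653 inside the Experimental range. That of Icam1 was 1.13 ± 0.166 and 1.31 ± 0.211, of Sele 0.237 ± 0.0622 and 0.273 ± 0.0410, and of Selp 0.196 ± 0.0240 and 0.180 ± 0.0363. The means of Selp per Cdh5 thus differed in the opposite direction to the other 3. Experimental 3 was at 0.110, with the remaining Experimental libraries at 0.176 to 0.212. Littermate 3 was at 0.232, with the remaining Littermates at 0.183 to 0.185, so this direction hangs on single libraries. Cdh5 was the only single vessel gene used as a divisor, and its own log2 fold change was -0.27. These quotients carry that difference, and they do not measure adhesion RNA per endothelial cell. Emcn, a vessel gene not used in this way, had a log2 fold change of 0.11.

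When the size factors were set to the vessel identity genes, the median of all genes shifted to 0.15 on the log2 scale. Icam1 was then at 0.10, Sele at 0.11, Vcam1 at 0.24 and Selp at -0.25, with adjusted p from 0.563 to 0.766 (edgeR). Sele and Icam1, negative under the usual scaling, were positive under this one and Vcam1 positive in both, and relative to the shift Sele and Icam1 stayed below 0. No adhesion gene passed on either scale.

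**Figure D3:**
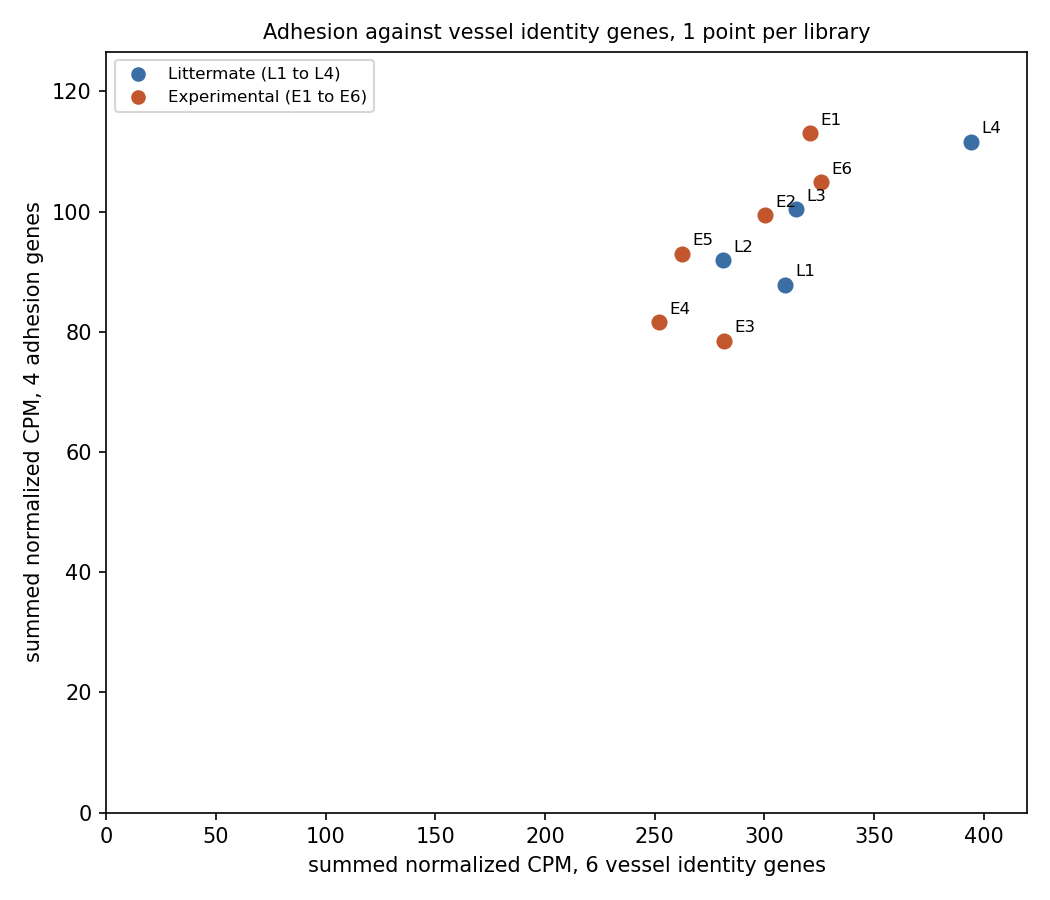
Summed normalized CPM of the 4 adhesion genes against that of the 6 vessel identity genes, 1 point per library, both axes from 0. Littermate 4 is farthest right at 394 CPM of vessel genes, Experimental 4 farthest left at 252, and points of both groups lie between them. No line was fitted.

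Over the 10 libraries, the levels of members were compared pair by pair. Of 45 pairs 39 had a positive Pearson r of log2 CPM, with a median of 0.44 and a range from -0.41 to 0.86, but none passed after adjustment over the 45 pairs. Over all 141616035 pairs of tested genes 49.9% were positive and the median was -0.00. At an unadjusted permutation p under 0.05 there were 10, and by Spearman's rho 2 passed. Pecam1 and Cdh5, both of endothelial junctions, had the highest r, 0.86 (rho = 0.83; permutation p = 0.0016 and 0.0049; adjusted 0.0720 and 0.0732). It was 0.69 without Littermate 2 and Experimental 4, and with the group means taken out it was 0.88 (permutation p adjusted over the pairs = 0.0117). Kdr with Icam1 had r = 0.81 and rho = 0.88 (adjusted permutation p = 0.109 and 0.0378). Cdh5 with Selp had r = 0.76 and rho = 0.90 (adjusted permutation p = 0.123 and 0.0378). All 6 pairs among the adhesion genes were positive, from 0.41 to 0.75, with Sele and Icam1 at the top. Pairs of vessel genes ran from -0.41 to 0.86, the lowest being Emcn with Cldn5. Without Littermate 4 no pair passed by Pearson's r either. All members share a library's composition, so the pairs are not independent of each other.

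The genes most like a member, by Pearson r over the 10 libraries among 14218 genes with a symbol and at least 1 CPM, were named by rank alone. For Cdh5 they were Lamb1 (r = 0.98), a laminin chain of basement membranes, Grb10 (0.97), Rhoj (0.96), Ggt5 (0.95) and Man2b2 (0.94). For Sele they included Anapc13 (0.92), Lpin2 (0.90), Aplnr (0.89), the apelin receptor of endothelium, and Gsdmcl-ps (0.88). By Spearman's rho these genes were at 0.94, 0.52, 0.76 and 0.62, and those named for Cdh5 at 0.85 to 0.98. None of those named passed between the groups. Their r is the highest of 14218 and is given as a description.

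Of 30 other endothelial genes tested, 0 passed at the adjusted threshold by edgeR, and at an unadjusted p under 0.05, 6 were lower in Experimental libraries (Eng, Tie1, Sox18, Sox13, Plvap and Sox7) and 0 higher, where the shares of all genes were 8.10% and 3.65%. Their median log2 fold change was -0.10 (-0.08 without Littermate 4), 23 were negative and 13 were highest in Littermate 4. The TGF-β co-receptor endoglin (Eng) stood at 50.0, 36.6, 41.5 and 62.5 CPM in Littermates 1 to 4 and at 26.6, 30.3 and 37.9 as the lowest, median and highest Experimental values. Only Experimental 6 reached into the Littermate range, and the log2 fold change was -0.60 ± 0.14 (SE; edgeR adjusted p = 0.112, DESeq2 adjusted p = 0.0131). Tie1, the partner of the angiopoietin receptor, had -0.39 ± 0.12 (SE; edgeR adjusted p = 0.250). DESeq2 called Eng alone of the 30, and edgeR called Eng and Sox7 without Littermate 2, where it called 2.01% of genes.

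**Figure D4:**
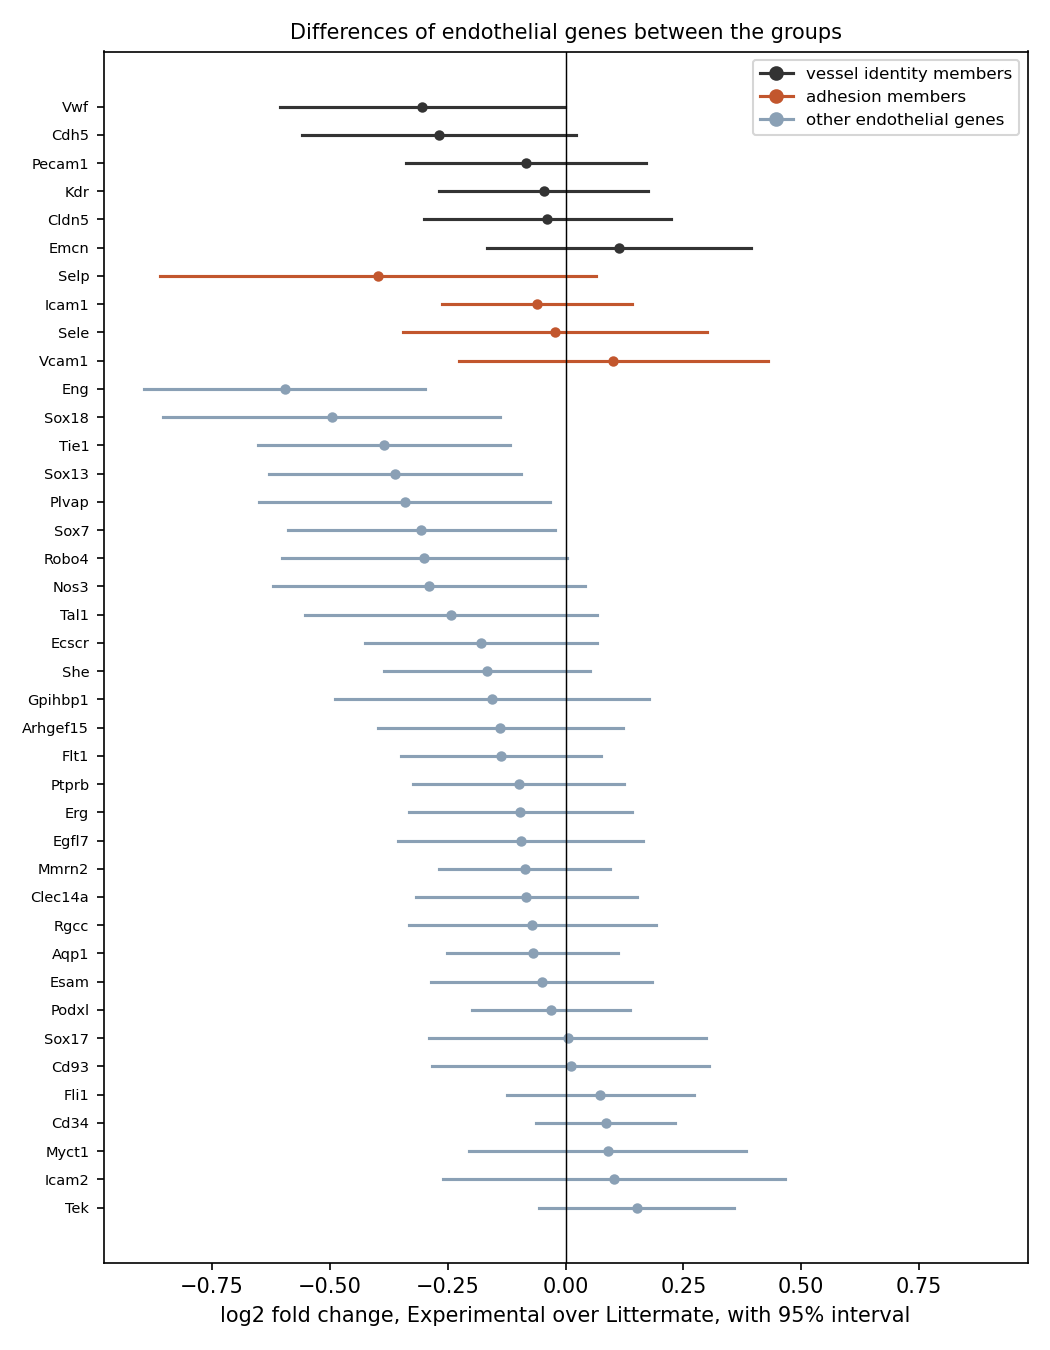
Log2 fold changes (Experimental over Littermate) with 95% intervals, by edgeR, for the 6 vessel identity members, the 4 adhesion members and 30 other endothelial genes, sorted within each set. Vwf is the 1 member whose interval ends below 0, just short of it, and 6 other endothelial genes from Eng to Sox7 have intervals wholly below 0.

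Of 21 genes tested for capture and passage of leukocytes, 0 passed by edgeR, and 2 were lower at an unadjusted p under 0.05. Over all genes the share lower at that threshold was 8.10%. They were Chst2, a sulfotransferase that builds selectin ligands (log2 fold change -0.35, edgeR adjusted p = 0.266), and Msn, moesin, which links ICAM-1 and VCAM-1 to actin (-0.29, edgeR adjusted p = 0.410). The atypical chemokine receptor Ackr1 of venules was at 11.2 ± 2.15 CPM (SD, n = 4) and 10.96 ± 1.79 (SD, n = 6). The list's median of -0.05 was close to that of the adhesion members.

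On the side of the leukocyte, 13 ligands and integrins were tested and 0 passed by edgeR. At an unadjusted p under 0.05, 1 was higher and 1 lower, where the shares of all genes were 3.65% and 8.10%. Itga4, the α4 chain that binds VCAM-1, differed by 0.22 on the log2 scale (edgeR adjusted p = 0.307), and Itga9 by -0.24 (edgeR adjusted p = 0.302). Itgal and Itgb2, the chains that bind ICAM-1, had -0.21 and -0.00, and Selplg, the ligand of P-selectin, -0.10. Without Littermate 2 and Experimental 6, where edgeR called 3.34% of genes, it called Itgal (-0.52, adjusted p = 0.0461). The list's median was -0.02.

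Among 20 inducers and their receptors tested, 0 passed by edgeR. Only Il13ra1, the IL-13 receptor chain, was at an unadjusted p under 0.05 (0.20, edgeR adjusted p = 0.300), where 3.65% of all genes were higher. It was followed by Il1a (0.21, edgeR adjusted p = 0.442). Several cytokines had wider ranges between mice than the members. Il1b stood at 45.5, 21.9, 64.1 and 53.4 CPM in Littermates 1 to 4 and at 13.3, 28.5 and 82.5 as the lowest, median and highest Experimental values. Its highest library was 6.20 times its lowest, that of Osm 6.28 and that of Il4 7.55, whereas the members ran from 1.37 (Kdr) to 2.53 (Selp). That of Tnf was 2.32, inside the range of the members. Experimental 6 was the highest library for Il1b, Il4, Il13, Osm and Il6, and of the Experimental libraries for Selp (10.3 CPM). Its Vcam1 (31.8 CPM) was above every Littermate, and its Selp, Sele (11.7 CPM) and Icam1 (51.2 CPM) were inside the Littermate range. Experimental 1 was higher than Experimental 6 in Vcam1 (33.2 CPM), Sele (12.9 CPM) and Icam1 (58.4 CPM). The share of all genes highest in Experimental 6 is not given here, and a link between these cytokines and the adhesion genes was not tested. Tnf lay between 5.53 and 8.76 CPM in Littermates, and between 3.77 and 8.55 in the Experimental group. The TNF receptor gene Tnfrsf1b was called by edgeR without Littermate 2 and Experimental 6 (-0.49, adjusted p = 0.0276), where 3.34% of genes were called.

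Of 15 genes of the NF-κB pathway 0 passed by edgeR, and Bcl3, a nuclear IκB protein, had the lowest p (log2 fold change -0.38, edgeR adjusted p = 0.159), followed by Relb (-0.11, edgeR adjusted p = 0.586). The median was -0.10 and 10 of the 15 were highest in Littermate 4. It was -0.03 without that library. Of 21 angiogenic signals 0 passed. At an unadjusted p under 0.05, Vegfb (-0.48, edgeR adjusted p = 0.179) and the Notch ligand Dll4 (-0.38, edgeR adjusted p = 0.355) were lower, against 8.10% of all genes. Without Littermate 2, edgeR called Vegfb (adjusted p = 0.0267). None of 8 arterial and venous genes was at an unadjusted p under 0.05, and the lowest p were those of Gja5 (-0.29, edgeR adjusted p = 0.547) and Sema3g (-0.21, edgeR adjusted p = 0.564).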

How the data were processed

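The submitters' processing notes name the mm10 build, the aligner STAR 2.0.4b, Subread, and featureCounts 1.4.5. Strand setting, annotation release and handling of multi-mapping reads: not given in the sources used here. RNA was depleted of ribosomal RNA, primed with random hexamers and read as single reads of 50 bases, per the labels' protocols. Per the file headers, the authors deposited a read count per gene, a CPM (the count over the library total, per 1000000) and an RPKM (that CPM per kilobase of gene length). Tests used the counts, and RPKM served only to order members by level.

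edgeR 4.0.16 was fitted to all 10 libraries (TMM, filterByExpr, robust quasi-likelihood, two-sided, Benjamini-Hochberg over 16830 genes). Total counts of 11520348 to 41935183 made 3 counts worth 0.0715 to 0.260 CPM. An SE is the log2 fold change over the square root of F. Correlations used log2 CPM with a prior count of 2 and 100000 permutations. Steps were tested on simulated data. Alternatives were other size factors and filters, DESeq2 1.42.0, limma 3.58.1 (voom), a replicate block, a Y-linked covariate, GC correction (GENCODE M21), and libraries left out. Beyond the members, each list gave every gene past the threshold, made up to 2 with the next lowest p, and likeness the top 5 genes for Cdh5 and for Sele; genes named beyond these were chosen after their values were seen. One likeness gene for Sele is not reported here. Members and lists were chosen with earlier results of these data known. Symbols matched 97.3% of identifiers.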

Additional observations from a re-analysis of the deposited data

How the results depend on the processing

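No member passed in any of the 24 settings tried, and the lowest adjusted p of a member was 0.0546 (Cdh5, without Littermate 2 and Experimental 6). The count of all genes called was 3, and it became 78 with no filter, 232 with DESeq2, 57 with voom quality weights, 67 with the replicate block, and 563 without Littermate 2 and Experimental 6. With each library left out in turn it ran from 3 to 343 (343 without Littermate 2, 28 without Experimental 6, 8 without Littermate 3). The labels do not say whether the replicate numbers pair the mice. Same-numbered libraries of the 2 groups had r from -0.02 to 0.09, and differently numbered ones from -0.13 to 0.14. With all r near 0, these values cannot settle it.

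Selp, Cdh5 and Vcam1 kept their sign in every setting, but not their size. The mean log2 CPM of Y-linked genes was 5.80 to 6.18 in Littermates, lowest in Littermate 4, and 6.10 to 6.36 in Experimental libraries. Every library thus held Y-linked RNA, so the values with this covariate are not an adjustment for sex. As a covariate this level also cannot be fully told apart from group. With the Y-linked level as covariate the log2 fold change was -0.15 for Selp, -0.050 for Cdh5, 0.30 for Vcam1, 0.073 for Pecam1, 0.12 for Kdr, 0.048 for Vwf, 0.054 for Cldn5, 0.067 for Sele and 0.12 for Icam1. With quality weights it was 0.022 for Kdr, 0.055 for Cldn5 and 0.017 for Sele. The block gave 0.024 for Cldn5, and the GC correction 0.10 for Cldn5, 0.013 for Vcam1 and 0.00061 for Icam1. Scaled to vessel genes, Sele was at 0.11 and Icam1 at 0.10. Without Littermate 2 and Experimental 6, Emcn was at -0.048 and Cldn5 at 0.076.

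With single libraries left out, Selp ran from -0.53 to -0.26, Cdh5 from -0.38 to -0.14, Vcam1 from 0.017 (without Experimental 1) to 0.20, Pecam1 from -0.14 to 0.00036, Kdr from -0.10 to 0.034, Vwf from -0.40 to -0.10, Emcn from 0.03 to 0.19, Cldn5 from -0.13 to 0.067, Sele from -0.092 to 0.063 and Icam1 from -0.10 to 0.020. The log2 difference of the ratio stayed between 0.07 and 0.15. The cause of these changes was not tested. Depth limits Selp and Sele most, with counting errors of up to 9.02%.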

Other observations

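Lymphatic vessels share Pecam1 with blood vessels and were followed through 7 markers, of which 5 were tested. By edgeR 0 passed at the adjusted threshold, and 2 were lower in Experimental libraries at an unadjusted p under 0.05, a share that was 8.10% over all genes. Prox1, the transcription factor that sets lymphatic identity, stood at 8.68, 7.69, 6.54 and 7.09 CPM in Littermates 1 to 4, and at 4.85, 5.07 and 6.29 as the lowest, median and highest Experimental values, so the groups did not overlap (2.12% of genes tested). Its log2 fold change was -0.52 ± 0.12 (SE; edgeR adjusted p = 0.108, DESeq2 adjusted p = 0.0185). Flt4, which encodes VEGFR3, had -0.41 ± 0.10 (SE; edgeR adjusted p = 0.121, DESeq2 adjusted p = 0.0230), and edgeR called it without Littermate 2 (adjusted p = 0.0313). DESeq2 called 0.786% of the 29507 genes it tested, a set that includes genes of low count. The marker Ccl21a had 0 counts in every library and Pdpn at most 3, so the list rests on the others.

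The cells around the vessels included 4 of 10 pericyte and smooth muscle genes at an unadjusted p under 0.05, all lower (Pdgfrb, Cspg4, Notch3 and Des), against 8.10% of all genes, and 0 passed by edgeR. Without Littermate 2, where edgeR called 2.01% of genes, Notch3 passed (adjusted p = 0.0267). Notch3 stood at 176 ± 45.9 CPM (SD, n = 4) and 126 ± 12.8 (SD, n = 6), with 240.5 in Littermate 4.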
